A study of Bos taurus with 12 samples.

Results

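FEZF1, LHX5, HESX1, GRP, HCRT and NPTX2 are 6 genes named for the developing forebrain, for hypothalamic neuropeptides and for synapses. They were found in the deposited count table by their Entrez identifiers and are 6 of its 19285 entries. All 6 were among the 18885 entries with an identifier of their own, and all 6 passed the filter on low counts. The lowest count in any library was 88 for FEZF1, 220 for LHX5, 478 for HESX1, 7 for GRP, 27 for HCRT and 168 for NPTX2. The genes had been picked because they differed strongly between the groups in these data, so their levels and fold changes are given as a description without p-values. NPTX2 encodes a synaptic pentraxin, which is neither a forebrain transcription factor nor a neuropeptide.

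Poly-A RNA came from embryonic stem cells of cattle, line F7, wild type in genotype, and was sequenced as 12 libraries in 4 groups of 3. The groups are named 1/7MC+Pyr+FGF, 1/7MC+Pyr, 1/7MC and MC. Pyruvate (Pyr), recombinant human basic fibroblast growth factor (FGF, a growth factor used to culture stem cells) and low-density feeder cells are named in the series title. MC is labelled NC under treatment, and the labels explain neither MC nor NC. All groups share 1 cell line, and nothing says that the 3 libraries of a group came from separate cultures, so tests and errors measure only the spread between these libraries, which may be technical.

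Total counts were 27373759 to 44440972 per library. MC replicates 2 and 3 appear to rest on gene models unlike those of the other 10 libraries, which no source states. Entries that share 1 of 128 Ensembl identifiers had unequal counts for 80 to 86 identifiers in the 10 libraries, but for 0 in MC replicates 2 and 3. Fold changes of the 6 genes over MC are therefore also given against MC replicate 1 alone, as are those of other genes where that ends a call or moves the fold by over 1.5 times. The stem cell label was checked on 11 measured pluripotency genes, whose summed level was 3435 to 3884 CPM (counts scaled to equal, TMM-corrected library totals) in 1/7MC+Pyr+FGF, 4097 to 4375 CPM in 1/7MC+Pyr, 2505 to 2833 CPM in 1/7MC and 4089 to 4243 CPM in MC. POU5F1, a core transcription factor of pluripotency, averaged 1150, 1165, 781 and 1093 CPM in the same order of groups, and none of the 11 genes was at 0 in a group. The edgeR test used below called 1 of the 11 higher and 6 lower in 1/7MC against MC, with a median log2 fold change of -0.61. In 1/7MC+Pyr against 1/7MC it called 7 higher and 0 lower, with a median of 0.58. For that 0, DESeq2 also gave 0 and an unadjusted edgeR p under 0.05 gave 1. SOX2, LIN28B, UTF1 and L1TD1 were not analysed here. The libraries are bulk RNA, in which fewer cells that express a gene and less of its RNA per cell cannot be told apart.

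FEZF1, LHX5 and HESX1 are transcription factors of the anterior neural plate, the sheet of ectoderm from which the forebrain forms. Signals of the WNT family push neural tissue towards posterior fates, and secreted WNT antagonists at the front of the embryo protect the forebrain. GRP and HCRT are precursors of peptides that neurons, many of them in the hypothalamus, cut to size by convertases, pack into dense core vesicles and release onto G protein-coupled receptors. NPTX2 is secreted at excitatory synapses, where it clusters glutamate receptors of the AMPA type.

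The 6 genes fell into 3 patterns. FEZF1 was high in MC and low in every 1/7MC group. LHX5, HESX1 and NPTX2 were lowest in 1/7MC and higher in both groups with pyruvate, NPTX2 to the MC level and LHX5 well below it. GRP and HCRT were high in 1/7MC and low in the other 3 groups.

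**Figure D1:**
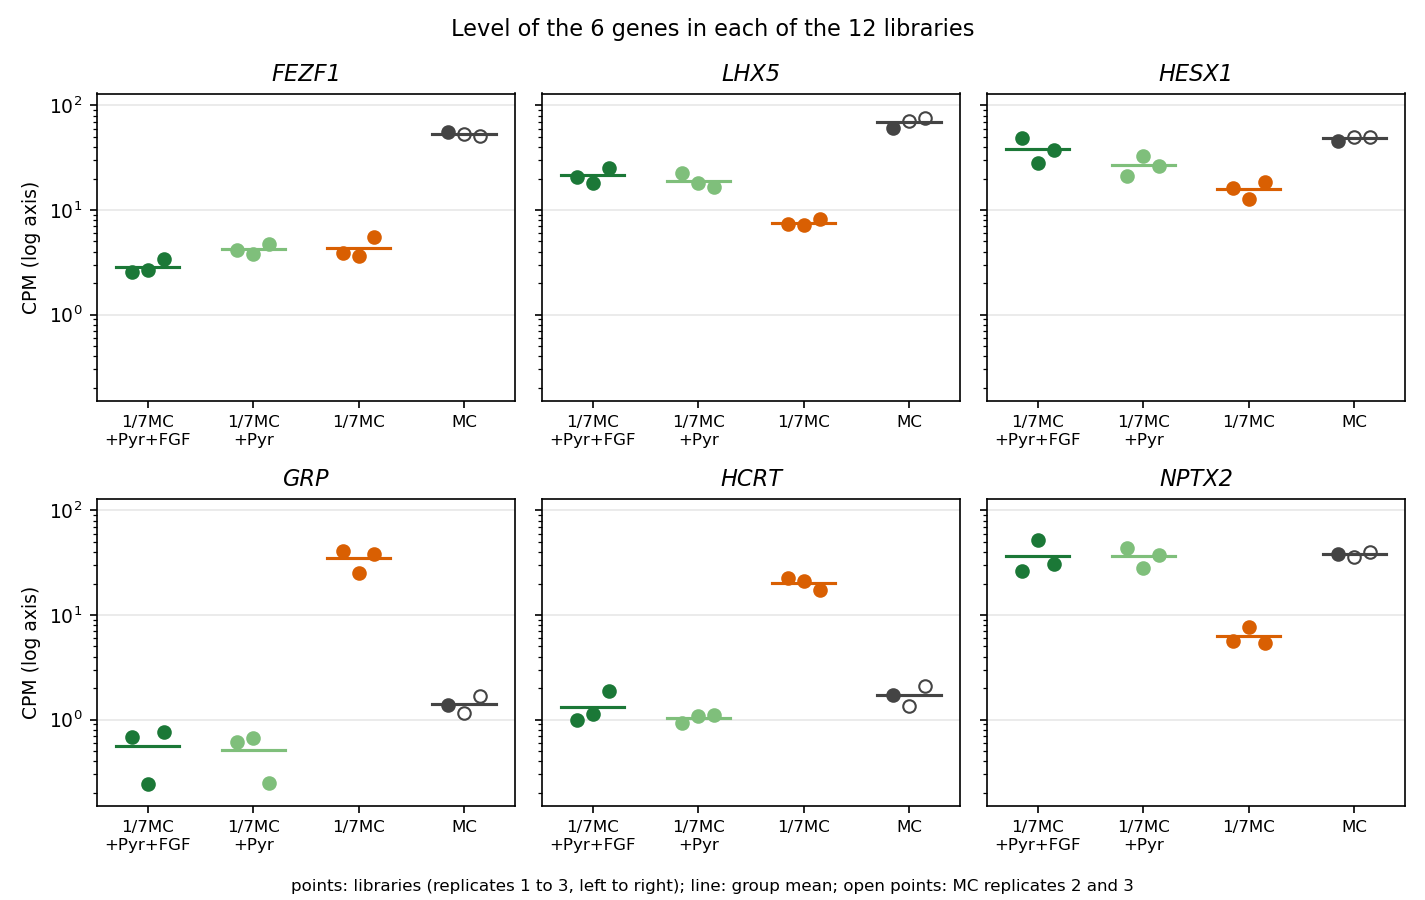
CPM on a log axis (vertical) for each of the 6 genes in the groups 1/7MC+Pyr+FGF, 1/7MC+Pyr, 1/7MC and MC (horizontal). Points are libraries, lines are group means, and open points are MC replicates 2 and 3, which appear to rest on unlike gene models; the 3 libraries of 1/7MC stand above all others for GRP and HCRT and below all others for LHX5 and NPTX2.

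FEZF1 (Entrez 511770) encodes a zinc-finger repressor that, with its relative FEZF2, patterns the forebrain in mouse. Replicates 1 to 3 had 2.55, 2.66 and 3.43 CPM in 1/7MC+Pyr+FGF, 4.15, 3.80 and 4.72 CPM in 1/7MC+Pyr, 3.91, 3.63 and 5.57 CPM in 1/7MC, and 55.8, 53.1 and 51.2 CPM in MC. The MC libraries stood far above the other 9, the ranges of 1/7MC+Pyr and 1/7MC overlapped, and all 3 libraries with FGF lay below all 3 of 1/7MC+Pyr. The group mean was 5.40% of the MC mean in 1/7MC+Pyr+FGF, 7.91% in 1/7MC+Pyr and 8.20% in 1/7MC. The log2 fold change of 1/7MC over MC was -3.61 ± 0.17 (SE, n = 3 libraries per group), and -3.66 ± 0.21 against MC replicate 1 alone. It was -0.05 ± 0.17 for 1/7MC+Pyr over 1/7MC and -0.55 ± 0.18 for 1/7MC+Pyr+FGF over 1/7MC+Pyr. The raw counts behind these values were 88 to 193 per library in the 3 1/7MC groups and 1379 to 1991 in MC.

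FEZF2, the paralogue of FEZF1, varied less. Its mean was 15.3 ± 1.48 CPM in 1/7MC+Pyr+FGF, 15.5 ± 1.33 CPM in 1/7MC+Pyr, 19.3 ± 2.39 CPM in 1/7MC and 30.5 ± 2.41 CPM in MC (SD, n = 3 each). FEZF2 fell by 0.66 ± 0.12 on the log2 scale in 1/7MC against MC (edgeR quasi-likelihood test with Benjamini-Hochberg adjustment, adjusted p = 0.000843, and 0.00389 against MC replicate 1 alone). Its difference between 1/7MC+Pyr and 1/7MC was -0.31 ± 0.12 (edgeR adjusted p = 0.105).

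LHX5 (Entrez 520759) encodes a LIM homeodomain factor of the anterior neural plate that in zebrafish raises the expression of secreted Wnt antagonists of the Sfrp family. It had 20.5, 18.3 and 25.3 CPM in 1/7MC+Pyr+FGF, 22.4, 18.2 and 16.8 CPM in 1/7MC+Pyr, 7.42, 7.16 and 8.17 CPM in 1/7MC, and 61.1, 71.3 and 75.7 CPM in MC. The groups with pyruvate overlapped each other and lay between 1/7MC and MC without overlap with either. LHX5 reached 30.8% of the MC mean in 1/7MC+Pyr+FGF, 27.6% in 1/7MC+Pyr and 10.9% in 1/7MC. Its log2 fold change was -3.19 ± 0.16 for 1/7MC over MC, 1.33 ± 0.15 for 1/7MC+Pyr over 1/7MC and 0.16 ± 0.14 for 1/7MC+Pyr+FGF over 1/7MC+Pyr. MC replicate 1 had the lowest LHX5 level of the MC libraries, and against it alone the first of these was -3.00 ± 0.19.

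HESX1 (Entrez 781811) encodes a homeodomain repressor of the anterior neural plate and of Rathke's pouch, the tissue that forms the anterior pituitary. It had 49.1, 27.9 and 37.6 CPM in 1/7MC+Pyr+FGF, 21.0, 32.9 and 26.1 CPM in 1/7MC+Pyr, 16.4, 12.7 and 18.4 CPM in 1/7MC, and 45.4, 49.9 and 50.4 CPM in MC. 1/7MC was the lowest group without overlap, while 1/7MC+Pyr+FGF overlapped both 1/7MC+Pyr and MC. The mean was 78.6% of the MC mean in 1/7MC+Pyr+FGF, 55.0% in 1/7MC+Pyr and 32.6% in 1/7MC. The log2 fold change was -1.62 ± 0.21 for 1/7MC over MC (-1.51 ± 0.27 against MC replicate 1 alone), 0.75 ± 0.21 for 1/7MC+Pyr over 1/7MC and 0.52 ± 0.21 for 1/7MC+Pyr+FGF over 1/7MC+Pyr.

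GRP (Entrez 615323) encodes gastrin-releasing peptide, the mammalian relative of bombesin, made among other places by neurons of the suprachiasmatic nucleus. It had 0.679, 0.242 and 0.765 CPM in 1/7MC+Pyr+FGF, 0.617, 0.661 and 0.249 CPM in 1/7MC+Pyr, 40.5, 25.5 and 38.5 CPM in 1/7MC, and 1.37, 1.15 and 1.67 CPM in MC. Every 1/7MC library was above all 9 others, and the 6 libraries with pyruvate were below the 3 MC libraries. The log2 fold change was 4.64 ± 0.32 for 1/7MC over MC, or 24.9-fold, and 4.67 ± 0.46 against MC replicate 1 alone. It was -6.06 ± 0.36 for 1/7MC+Pyr over 1/7MC and 0.14 ± 0.43 for 1/7MC+Pyr+FGF over 1/7MC+Pyr. The levels with pyruvate rest on 7 to 29 counts per library, against 960 to 1332 in 1/7MC.

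HCRT (Entrez 281222) encodes the precursor of orexin A and orexin B, peptides of the lateral hypothalamus that sustain wakefulness. It had 0.984, 1.12 and 1.87 CPM in 1/7MC+Pyr+FGF, 0.925, 1.09 and 1.10 CPM in 1/7MC+Pyr, 22.4, 21.1 and 17.4 CPM in 1/7MC, and 1.71, 1.34 and 2.12 CPM in MC. The 1/7MC libraries again stood above all others, and 1/7MC+Pyr+FGF overlapped both 1/7MC+Pyr and MC. The log2 fold change was 3.56 ± 0.24 for 1/7MC over MC, or 11.8-fold, and 3.58 ± 0.34 against MC replicate 1 alone. It was -4.28 ± 0.25 for 1/7MC+Pyr over 1/7MC and 0.34 ± 0.26 for 1/7MC+Pyr+FGF over 1/7MC+Pyr.

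NPTX2 (Entrez 100336779) had 26.6, 52.4 and 30.9 CPM in 1/7MC+Pyr+FGF, 43.9, 28.3 and 37.3 CPM in 1/7MC+Pyr, 5.67, 7.66 and 5.43 CPM in 1/7MC, and 38.6, 36.1 and 40.3 CPM in MC. The 1/7MC libraries were the lowest and the other 3 groups overlapped, with means of 95.6% of MC in 1/7MC+Pyr+FGF, 95.4% in 1/7MC+Pyr and 16.3% in 1/7MC. The log2 fold change was -2.61 ± 0.25 for 1/7MC over MC, also against MC replicate 1 alone (SE 0.31), 2.54 ± 0.25 for 1/7MC+Pyr over 1/7MC and 0.00 ± 0.23 for 1/7MC+Pyr+FGF over 1/7MC+Pyr. The spread within the groups with pyruvate was wide for NPTX2 and HESX1. In each of these groups the library with the highest NPTX2 level had the lowest HESX1 level, and the library with the lowest NPTX2 level had the highest HESX1 level. The sum of fibroblast markers, given below, ranked the libraries of each of these groups in the order of NPTX2.

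Set against MC, the groups with pyruvate differed by gene. The log2 fold changes of 1/7MC+Pyr+FGF over MC were -4.21 ± 0.18 for FEZF1, -1.70 ± 0.15 for LHX5, -0.35 ± 0.21 for HESX1, -1.28 ± 0.37 for GRP, -0.38 ± 0.25 for HCRT and -0.07 ± 0.23 for NPTX2. Those of 1/7MC+Pyr over MC were -3.66 ± 0.18 for FEZF1, -1.86 ± 0.15 for LHX5, -0.86 ± 0.21 for HESX1, -1.42 ± 0.39 for GRP, -0.72 ± 0.26 for HCRT and -0.07 ± 0.23 for NPTX2. Against MC replicate 1 alone, those of 1/7MC+Pyr+FGF were -4.29 ± 0.22 for FEZF1, -1.53 ± 0.19 for LHX5, -0.26 ± 0.28 for HESX1, -1.27 ± 0.48 for GRP, -0.39 ± 0.33 for HCRT and -0.09 ± 0.33 for NPTX2. Those of 1/7MC+Pyr were then -3.71 ± 0.21 for FEZF1, -1.66 ± 0.19 for LHX5, -0.75 ± 0.27 for HESX1, -1.38 ± 0.50 for GRP, -0.70 ± 0.34 for HCRT and -0.06 ± 0.33 for NPTX2. LHX5 moved by more than its SE with all MC libraries, and the other genes by less than theirs. GRP without 1/7MC+Pyr+FGF replicate 2 was at -0.94 over MC, and without 1/7MC+Pyr replicate 3 at -1.12 over MC.

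**Figure D2:**
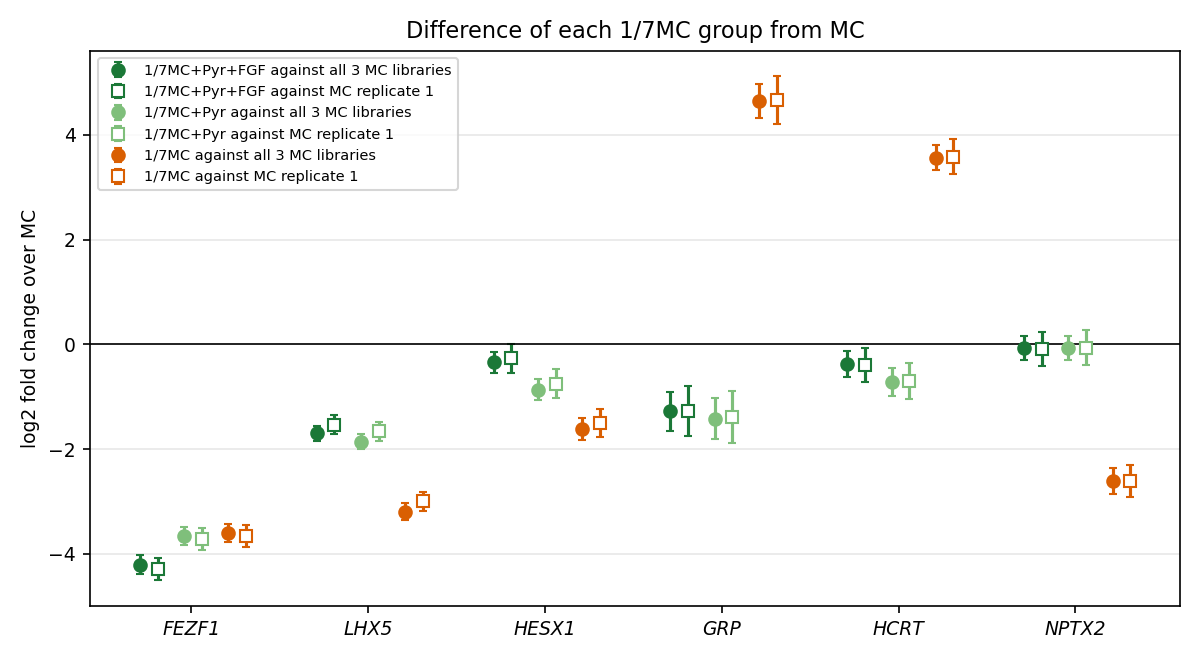
Log2 fold change over MC (vertical) of the 6 genes (horizontal) in 1/7MC+Pyr+FGF, 1/7MC+Pyr and 1/7MC, with bars of 1 SE. Filled circles use all 3 MC libraries and open squares MC replicate 1 alone; NPTX2 lay at -0.07 in both groups with pyruvate and at -2.61 in 1/7MC, and FEZF1 between -4.21 and -3.61 in all 3 groups.

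Per kilobase of gene length, the order of the genes differed between groups. In 1/7MC the highest were HCRT with a mean of 50.2 ± 6.44 RPKM (CPM divided by gene length in kilobases) and GRP with 50.1 ± 11.7 RPKM (SD, n = 3), which did not differ beyond their spread. HESX1 followed in 1/7MC with 5.01 ± 0.922 RPKM, LHX5 with 3.68 ± 0.255 RPKM, NPTX2 with 2.32 ± 0.456 RPKM and FEZF1 with 2.05 ± 0.49 RPKM. In MC the order ran from LHX5 with 33.7 ± 3.63 RPKM and FEZF1 with 25.0 ± 1.08 RPKM over HESX1 with 15.4 ± 0.875 RPKM and NPTX2 with 14.2 ± 0.785 RPKM to HCRT with 4.25 ± 0.957 RPKM and GRP with 2.01 ± 0.377 RPKM. Together the 6 genes summed to 99.8 to 103 CPM in 1/7MC+Pyr+FGF, 85.1 to 93.0 CPM in 1/7MC+Pyr, 77.7 to 96.3 CPM in 1/7MC and 204 to 221 CPM in MC.

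The edgeR test at an adjusted p under 0.05 called all 6 genes in 1/7MC against MC, 2 higher and 4 lower, where it called 23.7% of all 13920 genes tested higher and 21.3% lower. Against MC replicate 1 alone it called 2 higher and 4 lower, beside 14.0% and 9.96% of 14361 genes. It called 3 of the 6 higher and 2 lower in 1/7MC+Pyr against 1/7MC, beside 8.08% and 10.1% of all genes. For 1/7MC+Pyr+FGF against 1/7MC+Pyr edgeR called 0 of the 6 higher and 0 lower, beside 0.639% and 2.12% of all genes, as did DESeq2, while at an unadjusted p under 0.05 edgeR gave 1 higher and 1 lower. It called 3 higher and 3 lower in 1/7MC+Pyr+FGF against 1/7MC, beside 11.9% and 15.7%. Against MC it called 4 lower and 0 higher in 1/7MC+Pyr, beside 13.2% and 15.2%, and 3 lower and 0 higher in 1/7MC+Pyr+FGF, beside 15.4% and 17.1%. Against MC replicate 1 alone these were 2 lower and 0 higher in each, beside 3.15% lower and 6.56% higher in 1/7MC+Pyr and 6.13% lower and 5.86% higher in 1/7MC+Pyr+FGF. For the 0 higher calls, DESeq2 and an unadjusted edgeR p under 0.05 also gave 0. Since the 6 genes were picked from these contrasts, nothing is read from their counts. The call of HESX1 in 1/7MC+Pyr against 1/7MC ended without 1/7MC+Pyr replicate 2 (log2 fold change 0.58) or 3 (0.77) and without 1/7MC replicate 1 (0.78) or 2 (0.62). The call of FEZF1 in 1/7MC+Pyr+FGF against 1/7MC ended without 1/7MC+Pyr+FGF replicate 1 (-0.52) or 2 (-0.55) and without 1/7MC replicate 3 (-0.39), where it was -0.60 ± 0.17 with all libraries. That call of FEZF1 also ended in a fit of only the 2 groups compared (-0.60). HCRT, uncalled in both groups with pyruvate against MC, was called in 1/7MC+Pyr by DESeq2 (-0.72), with a filter of at least 1 CPM in 3 libraries (-0.78) and without MC replicate 2 (-0.87), and at -0.71 in 1/7MC+Pyr+FGF without replicate 3 of that group. The calls of GRP against MC in the groups with pyruvate ended without MC replicate 3, and each also ended without 1 library of its own group, replicate 3 of 1/7MC+Pyr or replicate 2 of 1/7MC+Pyr+FGF. Both ended against MC replicate 1 alone (-1.38 in 1/7MC+Pyr and -1.27 in 1/7MC+Pyr+FGF). That in 1/7MC+Pyr+FGF also ended in a fit of only the 2 groups compared (-1.30). The call of HESX1 in 1/7MC+Pyr against MC ended against MC replicate 1 alone (-0.75).

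Other forebrain transcription factors moved in both directions. Of 33 measured in a list of 38, 26 were tested, and 9 rose and 11 fell in 1/7MC against MC, with a median log2 fold change of -0.34 over the 26 and 0.00 over all genes. With pyruvate 4 rose and 11 fell over 1/7MC (median -0.69, and -0.01 over all genes). With FGF over pyruvate alone 1 fell and 0 rose. For that 0, DESeq2 gave 1 and an unadjusted edgeR p under 0.05 gave 3. Against MC replicate 1 alone 9 rose and 6 fell of 29 tested. Their summed level was 637 to 731 CPM in 1/7MC+Pyr+FGF, 705 to 729 CPM in 1/7MC+Pyr, 860 to 907 CPM in 1/7MC and 925 to 992 CPM in MC. SOX1, SOX3, FOXD1 and ZIC1 were not analysed here.

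The forebrain factors with the largest rises in 1/7MC against MC were ISL1, DLX1 and OTX1. ISL1, a LIM homeodomain factor of many neuron types, rose by 4.46 ± 0.26 (edgeR adjusted p = 9.23e-08), to a mean of 16.6 CPM in 1/7MC, against 0.754 CPM in MC. OTX1, a relative of OTX2, rose by 3.73 ± 0.36 (edgeR adjusted p = 4.96e-06), and DLX1, a factor of forebrain interneurons, by 3.80 ± 0.56 (edgeR adjusted p = 0.000169). The 3 largest falls were in LHX1, POU3F1 and EMX1. LHX1, the closest relative of LHX5, fell by 2.65 ± 0.39 (edgeR adjusted p = 0.000176, and by 3.30 without 1/7MC replicate 3), the POU factor POU3F1 by 2.09 ± 0.13 (adjusted p = 1.89e-07) and EMX1, a factor of the cortex, by 1.82 ± 0.36 (adjusted p = 0.00131).

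With pyruvate, LHX1 rose by 2.74 ± 0.39 in 1/7MC+Pyr against 1/7MC (edgeR adjusted p = 0.000526, and by 3.38 without 1/7MC replicate 3), LHX8, a factor of cholinergic neurons, by 1.61 ± 0.32 (adjusted p = 0.00453) and POU3F1 by 0.71 ± 0.13 (adjusted p = 0.00252). SIX6, a factor of eye and pituitary, fell by 4.94 ± 0.28 (edgeR adjusted p = 8.06e-07), to a mean of 0.786 CPM in 1/7MC+Pyr, against 24.6 CPM in 1/7MC. OTX1 fell by 4.28 ± 0.38 (adjusted p = 1.62e-05). DLX1 also fell (edgeR adjusted p = 0.000165), and since it had 2 counts in all of 1/7MC+Pyr and 174 in 1/7MC, its ratio is best given with its counting interval, 78.6-fold lower (95% interval 21.4 to 654, counting error only). LHX1 was the forebrain factor that fell in 1/7MC+Pyr+FGF against 1/7MC+Pyr, by 1.97 ± 0.36 (edgeR adjusted p = 0.014). That call of LHX1 ended without replicate 1 or 3 of either group, with adjusted p up to 0.0724.

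**Figure D3:**
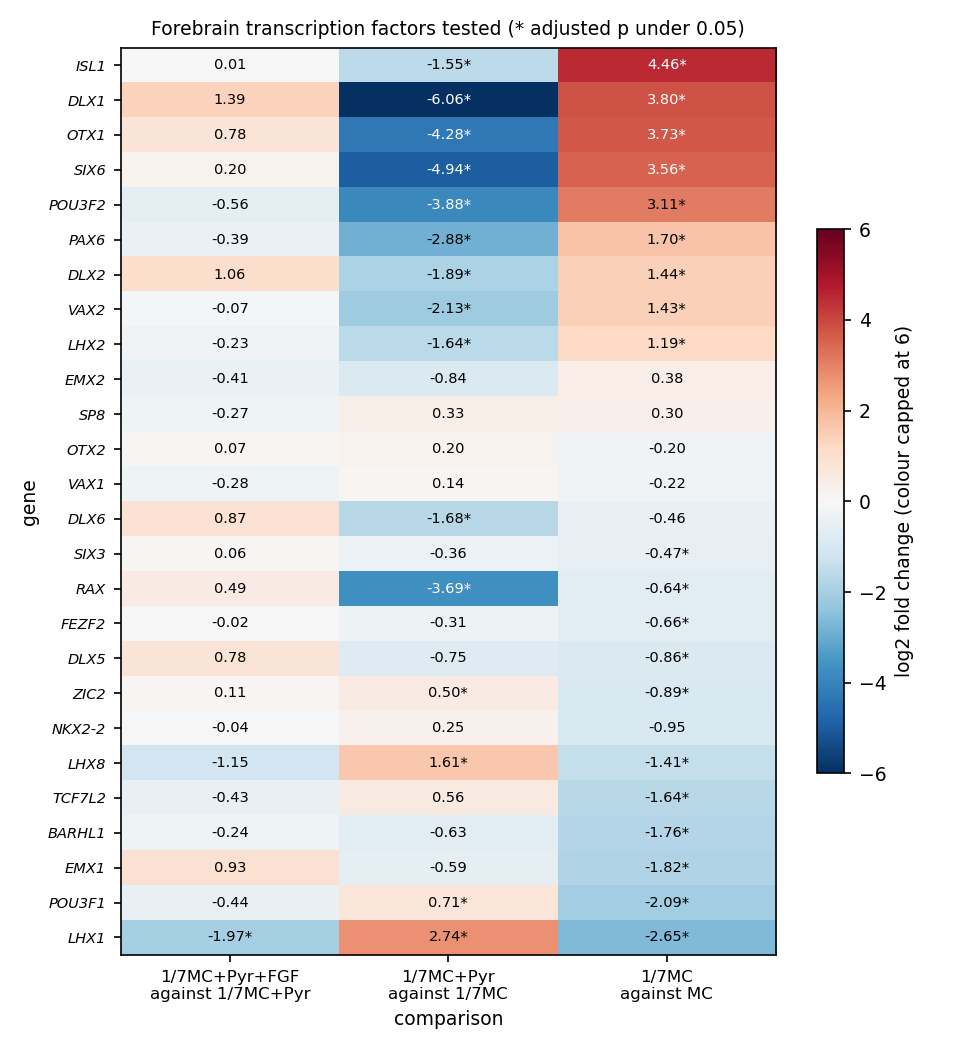
Log2 fold changes of the 26 forebrain transcription factors tested (rows) in 1/7MC+Pyr+FGF against 1/7MC+Pyr, 1/7MC+Pyr against 1/7MC and 1/7MC against MC (columns), with colour capped at 6 and a star for an adjusted p under 0.05. In 1/7MC against MC the values run from 4.46 (ISL1) to -2.65 (LHX1); the value of DLX1 in the middle column rests on 2 counts in 1/7MC+Pyr.

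Factors of the midbrain and hindbrain, the regions behind the forebrain, were measured for 21 genes and tested for 13. In 1/7MC against MC 6 rose and 4 fell, with a median of 0.56, and in 1/7MC+Pyr against 1/7MC 5 fell and 0 rose (for that 0, DESeq2 gave 1 and an unadjusted edgeR p gave 2). PAX5, a factor of the midbrain-hindbrain boundary and of B cells, rose by 6.88 ± 0.49 in 1/7MC against MC (edgeR adjusted p = 4.68e-07), and PAX3, a factor of the dorsal neural tube and neural crest, by 4.47 ± 0.48 (adjusted p = 1.14e-05). The rise of PAX5 was 5.66 against MC replicate 1 alone and 9.14 without it. PAX5 had a mean of 2.89 CPM in 1/7MC+Pyr, against 31.1 CPM in 1/7MC, and PAX3 0.191 CPM in 1/7MC+Pyr, against 4.52 CPM in 1/7MC. The neural plate factor IRX2 fell by 1.80 ± 0.21 in 1/7MC against MC (edgeR adjusted p = 2.51e-05), and by 1.21 against MC replicate 1 alone. EGR2 and PAX2, also of this list, were called lower there. By depth-scaled pooled counts they fell to 0.31 of MC (198 against 590 counts) and 0.346 of MC (729 against 1941 counts). With FGF over pyruvate alone edgeR called 0 of the 13, as did DESeq2, with 2 higher at an unadjusted p under 0.05.

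Regulators near LHX5 and HESX1 were described from 2 further lists. Of 18 tested LIM cofactors and secreted WNT or BMP antagonists, 8 rose and 3 fell in 1/7MC against MC, and 2 rose and 6 fell in 1/7MC+Pyr against 1/7MC. SFRP1, a secreted WNT antagonist, fell by 1.09 ± 0.11 in 1/7MC against MC (edgeR adjusted p = 8.9e-06) and rose by 1.23 ± 0.11 in 1/7MC+Pyr against 1/7MC (adjusted p = 2.08e-05). DKK1, a WNT antagonist that acts on the LRP co-receptors, rose by 3.08 ± 0.18 in 1/7MC against MC (edgeR adjusted p = 1.21e-07), fell by 2.47 ± 0.18 in 1/7MC+Pyr against 1/7MC (adjusted p = 4.05e-06) and rose by 1.33 ± 0.17 in 1/7MC+Pyr+FGF against 1/7MC+Pyr (adjusted p = 0.00251). SFRP2 averaged 184 CPM in 1/7MC+Pyr, 653 CPM in 1/7MC and 174 CPM in MC. LMO1, a LIM-only protein that competes for LIM cofactors, fell by 2.91 ± 0.33 in 1/7MC against MC (adjusted p = 2.14e-05) and averaged 2.35 CPM in 1/7MC+Pyr+FGF, 1.88 CPM in 1/7MC+Pyr, 2.49 CPM in 1/7MC and 18.8 CPM in MC. CHRD, a BMP antagonist, fell by 1.08 ± 0.19 in 1/7MC against MC (adjusted p = 0.000591) and rose by 1.14 ± 0.19 in 1/7MC+Pyr against 1/7MC (adjusted p = 0.00132).

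Of 7 tested partners of HESX1 in the pituitary and the anterior neural ridge, 5 fell and 0 rose in 1/7MC against MC, where DESeq2 and an unadjusted edgeR p also gave 0 higher. Against MC replicate 1 alone 1 of 9 fell. That gene was TLE3, a corepressor of the family through which HESX1 represses, which fell by 0.93 ± 0.14 (edgeR adjusted p = 0.000186). TLE3 averaged 125 CPM in 1/7MC+Pyr, 83.7 CPM in 1/7MC and 159 CPM in MC, and rose by 0.58 ± 0.14 in 1/7MC+Pyr against 1/7MC (adjusted p = 0.0119, up to 0.0588 without replicate 3 of either group). FGF8, a signal of the anterior neural ridge, fell by 2.61 ± 0.60 in 1/7MC+Pyr against 1/7MC (adjusted p = 0.0104), and by 3.47 without 1/7MC+Pyr replicate 2. The fall of FGF8 by 1.51 ± 0.45 in 1/7MC against MC (adjusted p = 0.0158) and of PITX1, a pituitary factor, by 2.55 ± 0.67 (adjusted p = 0.0083) ended against MC replicate 1 alone, with adjusted p = 0.0722 and 0.201. Without 1/7MC replicate 3 the adjusted p of FGF8 was 0.0671, and PITX1 was at -3.91. TLE1 was not analysed here.

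Most other neuropeptide genes were near the limit of detection. Of 28 measured in a list of 31, 15 were too low to test, among them NPY, AGRP, CRH, SST and VIP, and VIP was at 0 in every library. Of the 13 tested, 1 rose and 5 fell in 1/7MC against MC (median -0.46), and 5 rose and 1 fell in 1/7MC+Pyr against 1/7MC (median 0.90). The summed level of the 28 measured genes was 102 to 161 CPM in 1/7MC+Pyr+FGF, 123 to 201 CPM in 1/7MC+Pyr, 71.4 to 88.3 CPM in 1/7MC and 72.2 to 94.2 CPM in MC. The genes of this list named below hold little of it. In all of 1/7MC, NTS, PENK, GAL, NPB, ADCYAP1 and TAC3 had 497, 130, 77, 70, 57 and 38 counts. Most of the sum there came from genes of the list that are not named here.

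NTS, the precursor of neurotensin, was the neuropeptide gene of the list that rose in 1/7MC against MC, by 5.78 ± 0.31 (edgeR adjusted p = 5.03e-08), to a mean of 4.87 CPM in 1/7MC, against 0.0816 CPM in MC. That MC level rests on 8 counts in all of MC. NTS fell by 1.79 ± 0.21 in 1/7MC+Pyr against 1/7MC (adjusted p = 0.000125), where its mean was 1.40 CPM in 1/7MC+Pyr. The 3 largest falls in 1/7MC against MC were in TAC3, the precursor of neurokinin B, by 2.25 ± 0.35 (adjusted p = 0.000262), ADCYAP1, the precursor of PACAP, by 2.18 ± 0.25 (adjusted p = 2.22e-05) and NPB, neuropeptide B, by 1.59 ± 0.31 (adjusted p = 0.00114). With pyruvate GAL, the galanin precursor, rose by 2.35 ± 0.27 over 1/7MC (adjusted p = 0.000104), TAC3 by 2.29 ± 0.35 (adjusted p = 0.000855) and PENK, the precursor of enkephalins, by 1.28 ± 0.21 (adjusted p = 0.00116). In 1/7MC+Pyr+FGF against 1/7MC+Pyr NTS rose by 1.07 ± 0.21 (adjusted p = 0.0205), and PENK fell by 1.04 ± 0.20 (adjusted p = 0.0197) and GAL by 1.03 ± 0.25 (adjusted p = 0.0475). Each of these last 3 calls ended in 5 or more alternatives, among them without replicate 1 of either group and without 1/7MC+Pyr replicate 3, with adjusted p up to 0.101 for NTS, 0.0922 for PENK and 0.201 for GAL. The calls of PENK and GAL also ended without 1/7MC+Pyr+FGF replicate 3, and that of GAL without its replicate 2.

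**Figure D4:**
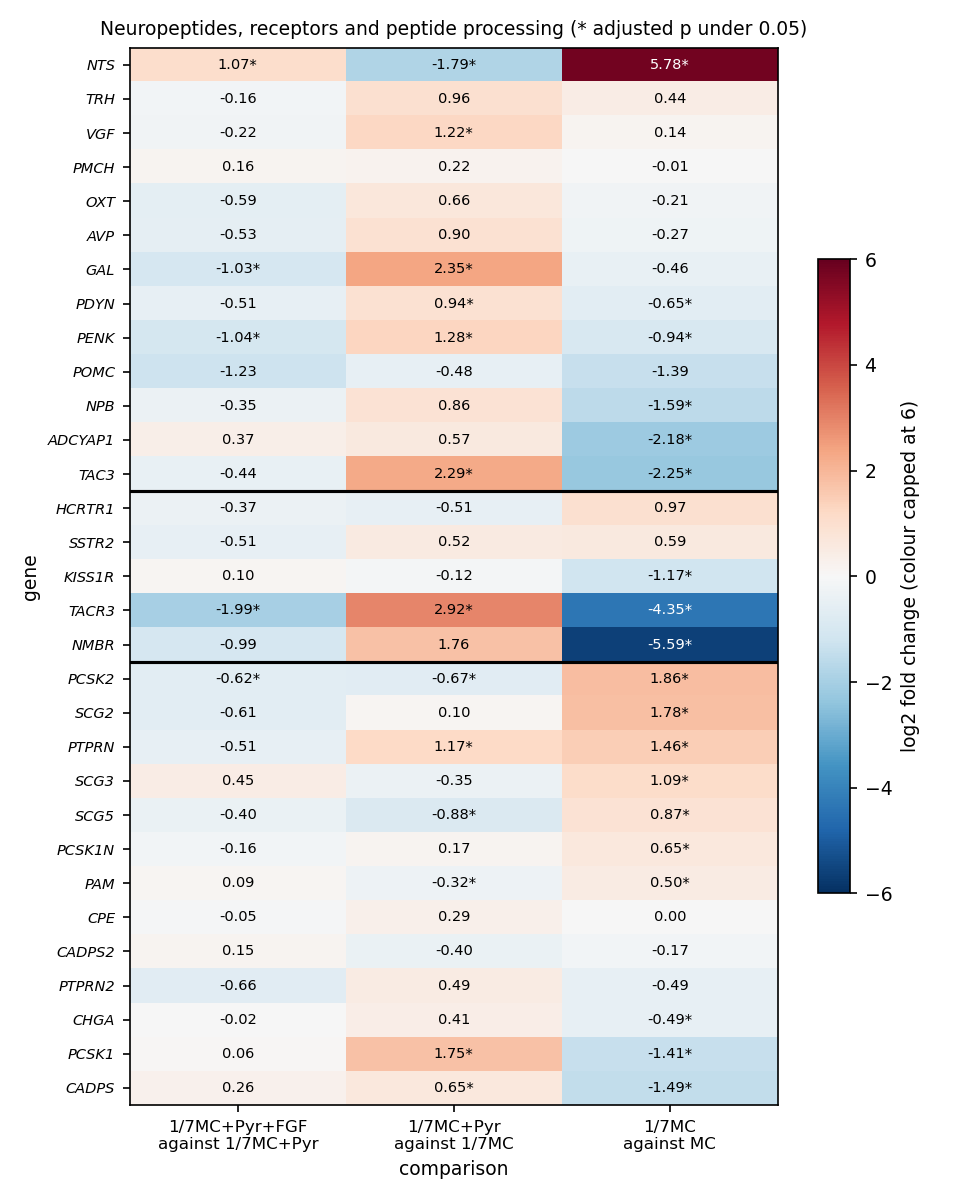
Log2 fold changes of tested neuropeptide genes (top), neuropeptide receptors (middle) and peptide processing genes (bottom) in 1/7MC+Pyr+FGF against 1/7MC+Pyr, 1/7MC+Pyr against 1/7MC and 1/7MC against MC (columns), with colour capped at 6 and a star for an adjusted p under 0.05. NTS is the neuropeptide gene with a starred rise in 1/7MC against MC (5.78); the values of NMBR rest on 2 to 7 counts per group outside MC.

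The receptors of GRP and HCRT were measured at low levels. GRPR did not exceed 0.333 CPM in any library, and in 1/7MC, where GRP was high, it had 0, 0.0796 and 0.289 CPM. HCRTR2 did not exceed 0.107 CPM. HCRTR1 averaged 0.611 ± 0.198 CPM in 1/7MC+Pyr+FGF, 0.787 ± 0.215 CPM in 1/7MC+Pyr, 1.11 ± 0.158 CPM in 1/7MC and 0.575 ± 0.256 CPM in MC (SD, n = 3 each). Its log2 fold change in 1/7MC over MC was 0.97 ± 0.38 (edgeR adjusted p = 0.0549), and 1.98 against MC replicate 1 alone (adjusted p = 0.0257). NMBR, the receptor of the related peptide neuromedin B, fell in 1/7MC against MC (adjusted p = 5.83e-05), with 2 counts in 1/7MC and 105 in MC, a ratio 56.9-fold lower (95% interval 15.4 to 476, counting error only). NMB itself was not analysed here. TACR3, the receptor of neurokinin B, fell by 4.35 ± 0.49 in 1/7MC against MC (adjusted p = 1.85e-05) and rose by 2.92 ± 0.54 in 1/7MC+Pyr against 1/7MC (adjusted p = 0.00279). Of the 5 receptors tested, 3 fell and 0 rose in 1/7MC against MC, where DESeq2 and an unadjusted edgeR p each gave 1 higher. With MC replicate 1 alone 3 of 7 fell and 1 rose, and the median was 0.18, against -1.17 with all MC libraries.

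Of 14 measured genes that process and store peptides, 0 were at 0 in all libraries of a group, but some were low. CHGB did not exceed 0.398 CPM in any library and was too low to test, and SCG2 had 17 counts in all of MC. Of 13 tested, 7 rose and 3 fell in 1/7MC against MC (median 0.50), and 3 rose and 3 fell in 1/7MC+Pyr against 1/7MC. The convertase PCSK2 rose by 1.86 ± 0.15 in 1/7MC against MC (edgeR adjusted p = 1.12e-06) and fell by 0.67 ± 0.14 in 1/7MC+Pyr against 1/7MC (adjusted p = 0.00629). The convertase PCSK1 fell by 1.41 ± 0.28 in 1/7MC against MC (adjusted p = 0.00161) and rose by 1.75 ± 0.28 in 1/7MC+Pyr against 1/7MC (adjusted p = 0.00114). PTPRN, a dense core vesicle protein, averaged 54.0 CPM in 1/7MC+Pyr+FGF, 76.7 CPM in 1/7MC+Pyr, 33.9 CPM in 1/7MC and 12.4 CPM in MC, and rose in 1/7MC against MC by 1.46 ± 0.25 (adjusted p = 0.000455) and in 1/7MC+Pyr against 1/7MC by 1.17 ± 0.24 (adjusted p = 0.00507). SCG5, the chaperone of PCSK2, fell by 0.88 ± 0.11 in 1/7MC+Pyr against 1/7MC (adjusted p = 0.000159).

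The relatives of NPTX2 and the AMPA receptor subunits it clusters were examined in a list of which 10 were measured and 7 tested. In 1/7MC against MC 3 rose and 1 fell, and in 1/7MC+Pyr against 1/7MC 1 rose and 2 fell. NPTX1, the closest relative measured, averaged 0.658 CPM in 1/7MC+Pyr+FGF, 0.689 CPM in 1/7MC+Pyr, 0.582 CPM in 1/7MC and 0.555 CPM in MC, with a log2 fold change of 0.09 ± 0.34 for 1/7MC over MC (edgeR adjusted p = 0.85). GRIA1, an AMPA receptor subunit, fell by 1.05 ± 0.21 in 1/7MC against MC (adjusted p = 0.00157) and rose by 0.98 ± 0.21 in 1/7MC+Pyr against 1/7MC (adjusted p = 0.00718). GRIA2, another subunit, rose by 5.16 ± 0.58 in 1/7MC against MC (adjusted p = 1.94e-05) to a mean of 2.05 CPM in 1/7MC (by 6.03 against MC replicate 1 alone and 6.79 without MC replicate 3), and fell by 3.62 ± 0.49 in 1/7MC+Pyr against 1/7MC (adjusted p = 0.000338). GRIA2 had only 5 counts in all of MC and 15 in all of 1/7MC+Pyr. The rises of GRIA3 (adjusted p = 0.0178) and of the pentraxin PTX3 (adjusted p = 0.0108) in 1/7MC against MC ended against MC replicate 1 alone, with adjusted p = 0.172 and 0.201, and without 1/7MC replicate 2, with 0.0939 and 0.0557. That of GRIA3 also ended without MC replicate 3 (adjusted p = 0.0734). NPTXR was not analysed here.

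Markers of neurons and of fibroblasts were examined beside these genes, and those of neurons moved in both directions. The 17 neuron markers were all measured, summed to 538 to 616 CPM in 1/7MC+Pyr+FGF, 618 to 650 CPM in 1/7MC+Pyr, 644 to 675 CPM in 1/7MC and 424 to 441 CPM in MC, and none was at 0 in all libraries of a group. Of 14 tested, 4 rose and 6 fell in 1/7MC against MC (4 and 3 of 17 against MC replicate 1 alone), and 4 rose and 2 fell in 1/7MC+Pyr against 1/7MC. MAP2, a microtubule protein of dendrites, averaged 36.4 CPM in 1/7MC+Pyr, 94.1 CPM in 1/7MC and 37.3 CPM in MC, and TUBB3, neuronal tubulin, 111, 176 and 84.9 CPM in the same groups. The largest falls in 1/7MC against MC were in RBFOX3, SYT1 and SYN1, to 0.50, 0.54 and 0.58 of MC by depth-scaled pooled counts. By the same measure, NEFM and NEFL rose in 1/7MC+Pyr to 1.88 and 1.59 times their 1/7MC level. GRP, HCRT and NPTX2 differed between 1/7MC+Pyr and 1/7MC, where the summed neuron markers were 618 to 650 and 644 to 675 CPM. The part of neurons in the results was not tested.

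All 18 fibroblast and feeder markers rose in 1/7MC against MC, with a median of 2.02, and none was at 0. For the 0 that fell, DESeq2 and an unadjusted edgeR p also gave 0. They summed to 13053 to 18705 CPM in 1/7MC+Pyr+FGF, 19266 to 31702 CPM in 1/7MC+Pyr, 15298 to 22931 CPM in 1/7MC and 4357 to 4532 CPM in MC. The marker level was high in the same 3 groups in which FEZF1 was low, and the part of these cells in the level of FEZF1 and LHX5 was not tested. GRP, HCRT and NPTX2 differed between 1/7MC+Pyr and 1/7MC. There the ranges of the fibroblast sum overlapped, while 4 of the 18 markers rose and 6 fell. COL6A3, a collagen, rose by 1.47 ± 0.26 (edgeR adjusted p = 0.00227), and the growth factor receptor PDGFRA fell by 1.71 ± 0.24 (adjusted p = 0.000449) and the proteoglycan BGN by 1.44 ± 0.16 (adjusted p = 8.76e-05). Within each 1/7MC group, the fibroblast sum ranked the libraries in the order of NPTX2 and in the reverse order of HESX1. For replicates 1 to 3 it was 13053, 18705 and 18465 CPM in 1/7MC+Pyr+FGF. It was 31702, 19266 and 24826 CPM in 1/7MC+Pyr and 17014, 22931 and 15298 CPM in 1/7MC. In MC the sums of 4532, 4405 and 4357 CPM did not follow the order of NPTX2. The part of these cells in the levels of HESX1, GRP, HCRT and NPTX2 was not tested.

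The 6 genes lie on 6 different chromosomes, as placed in RefSeq's table for assembly ARS-UCD2.0. Because the counts use another build, coordinates are not given. The nearest measured protein-coding genes on either side were compared with each of them. GRP lies between SEC11C, a subunit of the signal peptidase, and RAX, a homeodomain factor of the eye field and hypothalamus. RAX averaged 0.835 ± 0.356 CPM in 1/7MC+Pyr+FGF, 0.596 ± 0.103 CPM in 1/7MC+Pyr, 7.73 ± 2.15 CPM in 1/7MC and 12.1 ± 0.463 CPM in MC (SD, n = 3 each). RAX fell by 3.69 ± 0.29 in 1/7MC+Pyr against 1/7MC (edgeR adjusted p = 8.35e-06), where GRP was lower as well. In 1/7MC against MC RAX fell by 0.64 ± 0.23 (adjusted p = 0.0403), where GRP was higher. That call of RAX ended against MC replicate 1 alone (adjusted p = 0.136), by the rescaled signal, and without 1/7MC replicate 1 or 2 or MC replicate 2 or 3, with adjusted p up to 0.146. SEC11C was at 0.14 ± 0.12 in 1/7MC over MC (adjusted p = 0.351) and at -0.07 ± 0.12 in 1/7MC+Pyr over 1/7MC (adjusted p = 0.731).

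In 1/7MC against MC, the neighbours of the other 5 genes had smaller fold changes than those genes. Those genes were picked for strong differences in these data and the neighbours were not, so nothing is read from this. Next to FEZF1, AASS was at 0.01 ± 0.15 (edgeR adjusted p = 0.982) and CADPS2 at -0.17 ± 0.20 (adjusted p = 0.516) in 1/7MC over MC. Next to LHX5, RBM19 was at 0.08 ± 0.08 (adjusted p = 0.429) and SDSL fell by 2.33 ± 0.32 (adjusted p = 9.02e-05) in 1/7MC against MC, and SDSL was at 0.19 ± 0.35 in 1/7MC+Pyr over 1/7MC (adjusted p = 0.777). Next to HESX1, APPL1 was at 0.04 ± 0.13 in 1/7MC over MC (adjusted p = 0.812), and IL17RD, a membrane antagonist of FGF signalling, rose by 1.09 ± 0.23 in 1/7MC against MC (adjusted p = 0.00238, and 0.059 against MC replicate 1 alone) and fell by 1.01 ± 0.23 in 1/7MC+Pyr against 1/7MC (adjusted p = 0.0102), each time in the direction opposite to HESX1. Next to HCRT, GHDC rose by 0.58 ± 0.15 in 1/7MC against MC (adjusted p = 0.00781), and KCNH4 was at -0.04 ± 0.89 (adjusted p = 0.974). Next to NPTX2, TMEM130 fell by 0.67 ± 0.14 in 1/7MC against MC (adjusted p = 0.00243) and rose by 0.74 ± 0.14 in 1/7MC+Pyr against 1/7MC (adjusted p = 0.00374), and BAIAP2L1 fell by 1.77 ± 0.15 in 1/7MC against MC (adjusted p = 1.47e-06). NPTX2 overlaps the long noncoding gene LOC132343878 in that assembly by gene bounds, and the protocol states no step that marks strand. Reads from exon sequence shared by the 2 genes, if there is any, could not be told apart.

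**Figure D5:**
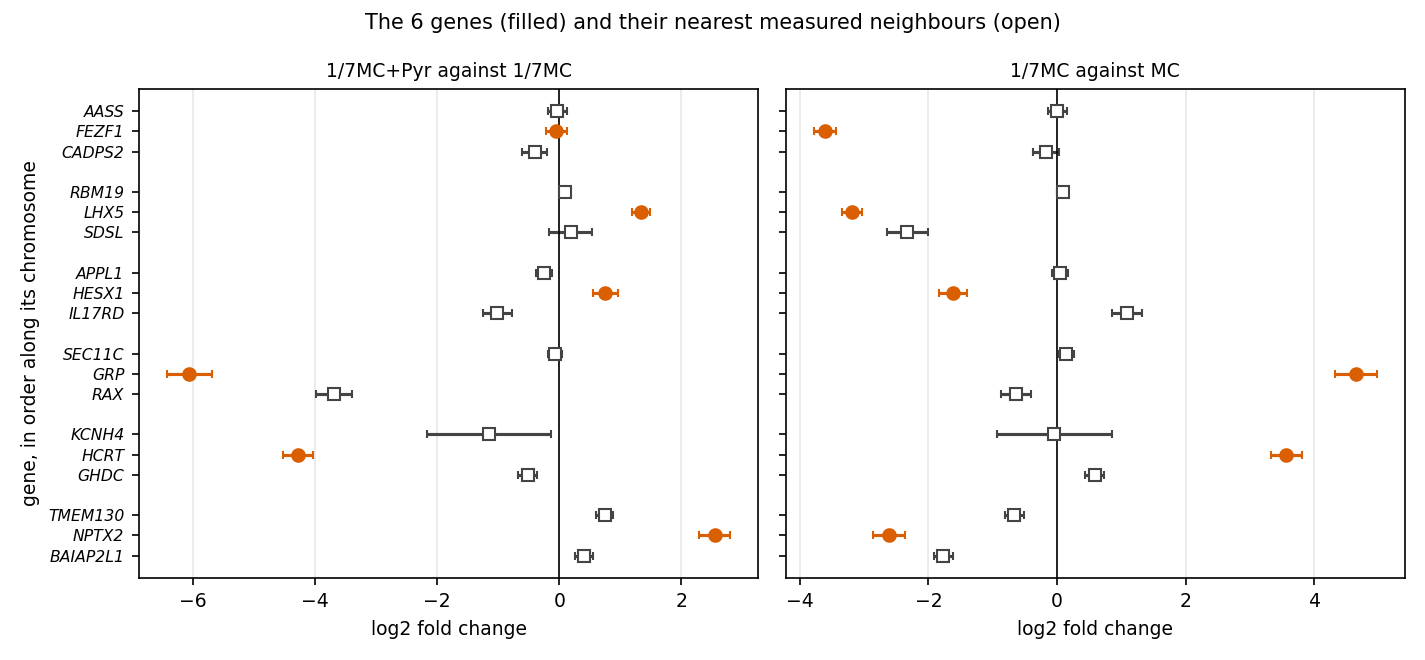
Log2 fold change (horizontal, bars of 1 SE) of the 6 genes (filled circles) and their nearest measured protein-coding neighbours (open squares), in chromosome order within each trio (vertical), for 1/7MC+Pyr against 1/7MC (left) and 1/7MC against MC (right). RAX, next to GRP, lies at -3.69 on the left, beside -6.06 for GRP, and at -0.64 on the right, beside 4.64 for GRP.

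The genes most like each of the 6 were named by Pearson's r of log2 CPM over the 10 libraries other than MC replicates 2 and 3, which share the 4 group differences and so are not independent points. GRP and HCRT were alike (r = 0.98), and NPTX2 ran opposite to GRP (r = -0.97) and to HCRT (r = -0.96). LHX5 and HESX1 had r = 0.83, and FEZF1 was least like the other 5, with r of 0.59 or less. Nearest to FEZF1 were FOSB, an immediate early factor, OGA, which removes O-linked N-acetylglucosamine, and TMEM97 (r = 0.97 each). FOSB averaged 0.395 CPM in 1/7MC+Pyr+FGF, 0.855 CPM in 1/7MC+Pyr, 0.654 CPM in 1/7MC and 17.7 CPM in MC. Nearest to LHX5 were CMTM8, PKDCC and GFRA1, a receptor of GDNF (r = 0.97 each), and nearest to HESX1 were TMEM38B, TEX13A and ISG20L2 (r = 0.98 each).

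Nearest to GRP were CAPN6, MACROH2A1, a histone variant, and DCT, a melanin enzyme (r = 0.99 each), and DCT averaged 1.79 CPM in 1/7MC+Pyr, 32.8 CPM in 1/7MC and 3.48 CPM in MC. Nearest to HCRT were SIX6, SAMD11 and the T-box factor TBX20 (r = 0.98 each). Their rank correlations (Spearman's rho) with HCRT were lower, at 0.81, 0.59 and 0.65, and r of SAMD11 was 0.92 over all 12 libraries. Many genes shared these patterns: those with r over 0.9 numbered 279 for GRP, 298 for HCRT and 367 for NPTX2. TBX20 averaged 0.242 CPM in 1/7MC+Pyr+FGF, 0.270 CPM in 1/7MC+Pyr, 18.2 CPM in 1/7MC and 0.265 CPM in MC. Nearest to NPTX2 were ITPR3, a calcium channel of the endoplasmic reticulum (r = 1.00), PODXL, a sialomucin of stem cell surfaces, and LRRC4B, a synaptic adhesion protein (r = 0.99 each). For PODXL r was 0.52 over all 12 libraries, and PODXL ranged from 366 to 1088 CPM among the MC libraries, whose gene models appear not to be the same.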

How the data were processed

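Per the labels' protocols, poly-T beads selected messenger RNA, and a NEBNext Ultra kit made the libraries. The tools named in the submitters' processing notes are HISAT2 2.1.0, fastp 0.19.7, featureCounts and Subread 2.0, with bosTau9 as build; their order, settings and annotation are not given in the sources used here. The authors deposited whole-number counts per gene without normalisation. A second deposited table, named tpm, holds a signal equal to count over length times 4.94, without depth correction, so it served only as an alternative, rescaled to equal sums.

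Of 19285 entries, 400 with a shared identifier were left out (1.07% to 1.40% of counts); 18803 of the kept entries received a symbol by Entrez identifier. CPM and RPKM were computed from the deposited counts with TMM-corrected totals. edgeR 4.0.16 (TMM, filterByExpr, quasi-likelihood F test, 1 coefficient per group, all 12 libraries, Benjamini-Hochberg over 13920 genes, threshold 0.05) gave fold changes, first group over second, with SE the fold change over the square root of F. With MC replicate 1 alone, that library is assumed to vary like the other groups. DESeq2 1.42.0, limma 3.58.1 (log2 of signal plus 0.1), R 4.3.3, Python 3.11.15 and matplotlib 3.10.9 were also used. The edgeR fit of all 12 libraries, with and without a replicate block, and the DESeq2 fit were tested on simulated data. The limma fit was not. The 6 genes and 11 lists were chosen with earlier results of these data known. Named in the text are all 6 genes, their partners and neighbours, and from each list genes among the 3 largest called changes per direction in 3 comparisons. Log2 CPM for likeness used a prior count of 2.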

Additional observations from a re-analysis of the deposited data

How the results depend on the processing

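No fold change called by the edgeR test, among those of the 6 genes and of the other genes named, changed sign under an alternative. The fold changes of the 6 genes stayed within the replicate spread in 484 of their alternatives and moved in 2, both of LHX5 against MC replicate 1 alone. Against MC replicate 1 alone, all genes called numbered 3438 in place of 6268 in 1/7MC against MC, 1394 in place of 3949 in 1/7MC+Pyr against MC and 1723 in place of 4527 in 1/7MC+Pyr+FGF against MC. Of the 6 genes 2 in place of 4 were called lower in 1/7MC+Pyr, forebrain factors lower in 1/7MC numbered 6 in place of 11, and neuropeptide genes higher in 1/7MC numbered 2 in place of 1, as they did without a filter on low counts. Without that filter 2 neuropeptide genes in place of 1 were lower in 1/7MC+Pyr against 1/7MC. In 1/7MC+Pyr+FGF against 1/7MC+Pyr, DESeq2 called 902 genes in place of 384, with 1 forebrain factor higher in place of 0 and 3 lower in place of 1. There the neuropeptide genes were 0 higher in place of 1 by the rescaled signal and 1 lower in place of 2 without the filter. With the rescaled signal the share of higher calls was 64.0% in place of 52.7% in 1/7MC against MC, 67.5% in place of 53.6% in 1/7MC+Pyr against MC, 13.1% in place of 23.2% in 1/7MC+Pyr+FGF against 1/7MC+Pyr and 26.2% in place of 43.1% in 1/7MC+Pyr+FGF against 1/7MC. The cause was not tested.

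No pairing of libraries by replicate number was seen. Deviations of log2 CPM from the group means were correlated between libraries of different groups. For same-numbered libraries these correlations ran from -0.316 to 0.333, with 2 of 18 over 0.1. For libraries with other numbers they ran from -0.37 to 0.357. With 3 libraries per group this check was weak. With the replicate number as a block, 181 genes in place of 384 were called in 1/7MC+Pyr+FGF against 1/7MC+Pyr, and 0 neuropeptide genes higher and 0 lower.

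Leaving out each library in turn gave 5001 to 6953 calls in 1/7MC against MC, 1423 to 2252 in 1/7MC+Pyr against 1/7MC (1423 without 1/7MC+Pyr replicate 3, 1648 and 1467 without 1/7MC replicates 1 and 3), 127 to 439 in 1/7MC+Pyr+FGF against 1/7MC+Pyr, 2697 to 3209 in 1/7MC+Pyr+FGF against 1/7MC, 2571 to 5151 in 1/7MC+Pyr against MC and 3015 to 5337 in 1/7MC+Pyr+FGF against MC. In 1/7MC+Pyr+FGF against 1/7MC+Pyr the count was 149 and 239 without 1/7MC+Pyr+FGF replicates 1 and 2, and 127 and 143 without 1/7MC+Pyr replicates 1 and 3. Against MC it was 2571 and 2616 in 1/7MC+Pyr without MC replicates 2 and 3, and 3015 in 1/7MC+Pyr+FGF without MC replicate 2. Of the 6 genes, 2 to 3 were called higher in 1/7MC+Pyr against 1/7MC, 2 to 3 lower in 1/7MC+Pyr+FGF against 1/7MC, 3 to 5 lower in 1/7MC+Pyr and 2 to 4 lower in 1/7MC+Pyr+FGF against MC. Forebrain factors in 1/7MC against MC were 9 to 10 higher and 9 to 10 lower; with FGF over pyruvate alone they were 0 to 1 higher and 0 to 1 lower. Neuropeptide genes were 1 to 2 higher in 1/7MC against MC, 1 to 2 lower in 1/7MC+Pyr against 1/7MC, and 0 to 1 higher and 0 to 3 lower in 1/7MC+Pyr+FGF against 1/7MC+Pyr. With 7 to 29 counts of GRP per library, depth limited the precision of its level in the groups with pyruvate.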
